A study of Mus musculus with 11 samples.

Results

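The Rab GTPases are the largest family of small GTPases that direct membrane traffic, and their messenger RNAs were followed here across sorted cells of the mouse duodenal epithelium. Members were the genes whose symbol is Rab followed by a number and at most 1 letter and 1 further digit, with a total of at least 15 counts over the 11 libraries. This gave 54 genes of the 59 with such a symbol, in a table of 38283 genes. Just inside the threshold were Rab26 with a total of 19.8 counts and Rab44 with 33 counts, and just outside it were Rab39 and Rab7b with 10 counts each. Below those were Rab38 with 5 counts, Rab33a with 2 and Rab42 with 1. Of the 54 members, 51 passed the filter on low counts and were tested, while Rab26, Rab34 and Rab44 did not pass it.

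The libraries came from the duodenum of mice of 2 strains kept on standard chow, and cells were sorted by a fluorescent reporter. In the strain Neurod1-cre-eYFP, a yellow fluorescent protein marked cells with Cre under Neurod1, which encodes a factor of the enteroendocrine lineage. In the strain GluVenus, the Venus protein marked cells with the glucagon gene Gcg. The groups were 3 positive and 3 negative NeuroD1 libraries and 3 positive and 2 negative Glu libraries, named by group and label number. Values of a group are always given in the order NeuroD1_positive_6360, NeuroD1_positive_6361 and NeuroD1_positive_6362, likewise for NeuroD1 negative, then Glu_positive_5254, Glu_positive_5160 and Glu_positive_4665, and Glu_negative_5254 and Glu_negative_4665. A Cre-switched reporter also stays on in descendants of cells that once made Cre, the negative cells are a mixture, and strain and reporter cannot be told apart. The labels do not say which libraries came from separate animals, so a p-value here measures spread among libraries, which may be technical.

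Library totals were 2279594 to 5722371 counts. Levels are CPM, the counts scaled to library size with TMM factors, which compare 1 gene between libraries, or CPM per kilobase of annotated exon, which compare genes with each other. Fold changes are log2 ± SE from edgeR's quasi-likelihood fit, and a call needed a Benjamini-Hochberg adjusted p under 0.05 over 14332 tested genes. Neurod1 was 394 to 540 CPM in the NeuroD1 positive libraries against 35.6 to 49.8 CPM in the negative ones. Gcg was 20199.5 to 60981 CPM in the Glu positive libraries against 2272 and 3166 CPM in the negative ones. Marker sums for enteroendocrine cells were 41382 to 59955 CPM (NeuroD1 positive), 10829 to 28972 CPM (Glu positive), 2009 to 2389 CPM (NeuroD1 negative) and 1052 and 1256 CPM (Glu negative), so the positive sorts were rich in markers of the labelled cell type. In bulk RNA a lower share of a cell type and less RNA per cell cannot be told apart, and this applies to every difference given here.

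A Rab protein is a switch: bound to GTP on a membrane it recruits effectors such as motors, tethers and docking factors, and bound to GDP it is drawn off the membrane by a GDP dissociation inhibitor. Exchange factors load GTP, and GTPase-activating proteins of the TBC family end the active state. Each Rab marks its own membranes, and Rab3 and Rab27 proteins are known for the hormone granules of endocrine cells, where they act with rabphilin-like proteins, RIM proteins and synaptotagmin-like proteins in docking before release. Rab proteins hold to membranes through lipids attached to cysteines at their carboxyl end.

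The ends of the coding sequences are shown for the 4 Rab3 genes, which carry the main finding, beside Rab27a and the 2 Rab8 genes. Each run is the last 60 bases of the GENCODE vM21 (GRCm38) coding sequence with its stop codon, 5′ to 3′, and capitals mark the codons of the cysteines of the lipid-attachment end.
Rab3a: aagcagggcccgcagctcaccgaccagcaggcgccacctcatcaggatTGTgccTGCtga
Rab3b: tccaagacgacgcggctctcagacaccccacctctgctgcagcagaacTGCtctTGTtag
Rab3c: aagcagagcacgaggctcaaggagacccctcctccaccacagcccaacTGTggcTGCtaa
Rab3d: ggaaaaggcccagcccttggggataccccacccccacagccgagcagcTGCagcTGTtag
Rab27a: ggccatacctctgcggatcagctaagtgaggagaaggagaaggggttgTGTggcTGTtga
Rab8a: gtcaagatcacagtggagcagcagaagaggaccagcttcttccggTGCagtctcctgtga
Rab8b: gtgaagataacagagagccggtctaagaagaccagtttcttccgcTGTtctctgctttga
The 4 Rab3 genes and Rab27a end in a cysteine, any residue and a cysteine, whereas Rab8a and Rab8b have 1 cysteine followed by 3 other residues. Over the 54 members, 17 ended like Rab3, 14 in a pair of cysteines, 15 in a pair of cysteines followed by 1 to 3 residues and 8, among them Rab8a and Rab8b, in a single cysteine followed by 3 residues. The coding sequences of the paralogs differ along their length. Rab3c and Rab3d were identical at 75.3% of 655 aligned bases with a longest shared run of 26 bases, and Rab3b and Rab3d at 77.9% of 656 with a longest run of 33. The longest shared run among the paralog pairs compared was 38 bases, between Rab1a and Rab1b.

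In the NeuroD1 comparison, 10 of the 51 tested Rab genes were higher and 1 was lower in the positive cells. The 10 were Rab3b, Rab3c, Rab3d, Rab15, Rab36, Rab37, Rab4b, Rab40b, Rab2a and Rab7, and the 1 lower gene was Rab8b. Over all tested genes edgeR called 6.57% higher and 7.61% lower, or 14.2% in either direction, against 21.6% of the Rab genes. DESeq2 called 10 Rab genes higher and 2 lower. At an unadjusted p under 0.05 there were 18 Rab genes, against 26.4% of all tested genes. The median log2 fold change of the Rab genes was 0.35 against 0.02 over all tested genes, and it was also 0.35 with Rab40b set to the bound that its counts allow. Groups did not overlap, in the higher direction, for 19 Rab genes (18.3% of all tested genes), and in the lower direction for 4 (17.2%).

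In the Glu comparison, 1 Rab gene of 51, Rab3c, was higher in the positive cells, and 0 were lower. Over all tested genes edgeR called 4.22% higher and 2.41% lower, or 6.64% in either direction, against 1.96% of the Rab genes. At an unadjusted p under 0.05 there were 13 Rab genes (23.4% of all tested genes), and DESeq2 called 3 higher and 0 lower. The median log2 fold change of the Rab genes was 0.43 against 0.12 over all tested genes. Groups did not overlap for 11 Rab genes in the higher direction (15.8% of all tested genes) and for 6 in the lower direction (16.5%). With 2 Glu negative libraries this comparison rests on fewer data, and the difference between strains is tested on its own further on.

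**Figure D1:**
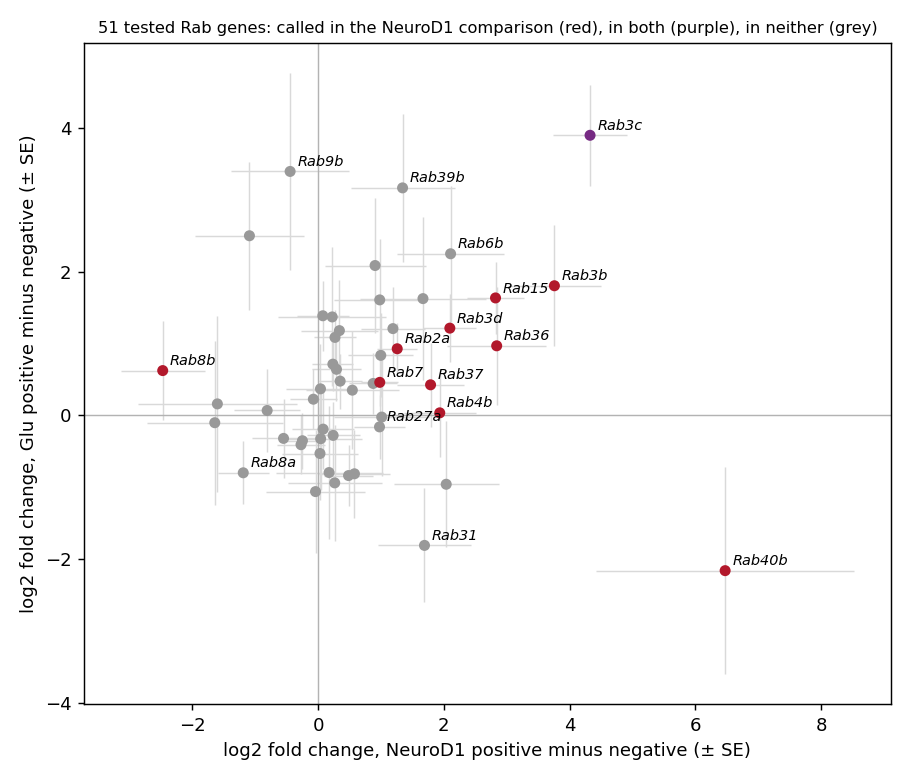
Each point is 1 of the 51 tested Rab genes, with the log2 fold change of NeuroD1 positive minus negative on the x axis and of Glu positive minus negative on the y axis, both with bars of 1 SE. Rab3c lies far out on both axes at 4.32 and 3.89, Rab8b lies at -2.47 and 0.62, and the fitted value of Rab40b, at 6.47, is no measure of size because the NeuroD1 negative libraries held 0 counts.

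Genes of regulated secretion came first. Of 7 tested, 4 were higher and 0 were lower in the NeuroD1 comparison (57.1% called, against 14.2% of all tested genes). Their median log2 fold change was 1.79, against 0.02 over all tested genes. In the Glu comparison 1 of the 7, Rab3c, was higher and 0 were lower (14.3% called, against 6.64% of all tested genes). The median was 1.21, against 0.12 over all tested genes. At an unadjusted p under 0.05 the shares of all tested genes were 26.4% for NeuroD1 and 23.4% for Glu. Counts in a role group near or below the shares of all tested genes say nothing particular about its members. Rab26, which acts in secretory granule maturation, was not tested at its total of 19.8 counts.

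Rab3c, a granule Rab of neurons and endocrine cells, was 733, 544 and 363 CPM in the NeuroD1 positive libraries. The NeuroD1 negative libraries held 23.4, 31.6 and 27.1 CPM. Every NeuroD1 positive library was above every negative one, and the log2 fold change was 4.32 ± 0.59 (edgeR adjusted p = 6.7e-05). In the Glu positive cells Rab3c was 193, 24.8 and 54.0 CPM, and in the Glu negative cells it was 4.0 and 8.0 CPM. The Glu groups did not overlap, but the 3 Glu positive libraries were widely spread and one of them was at the level of the NeuroD1 negative cells. Its Glu log2 fold change was 3.89 ± 0.70 (edgeR adjusted p = 0.00247), and without Glu_negative_5254 it was 3.48 and did not pass (edgeR adjusted p = 0.063). The interaction, which tests whether the 2 strains differ in the positive to negative change, was 0.43 ± 0.82 and did not pass (edgeR adjusted p = 0.889).

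Rab3b, the second Rab3 gene with a large change, was 38.9, 34.0 and 36.2 CPM in the NeuroD1 positive libraries and 1.8, 2.5 and 3.9 CPM in the negative ones. The log2 fold change was 3.76 ± 0.74 (edgeR adjusted p = 0.00202). Among Glu positive libraries it was 2.4, 1.0 and 7.7 CPM, and in Glu negative libraries 1.5 and 0.7 CPM. The Glu groups overlapped, and the log2 fold change of 1.80 ± 0.84 did not pass (edgeR adjusted p = 0.204). The interaction of 1.95 ± 1.09 did not pass either (edgeR adjusted p = 0.544), so the strains were not shown to differ in this change.

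Rab3d, a granule Rab best known from exocrine cells, was 112, 93.5 and 144 CPM in the NeuroD1 positive libraries and 25.0, 26.1 and 31.0 CPM in the negative ones. The groups did not overlap, with a log2 fold change of 2.09 ± 0.42 (edgeR adjusted p = 0.00225). Glu positive values were 83.1, 36.2 and 113 CPM, and in Glu negative libraries 39.8 and 27.2 CPM. Glu_positive_5160 lay between the 2 negative ones, and the log2 fold change of 1.21 ± 0.47 did not pass (edgeR adjusted p = 0.128). Without Glu_positive_5160 it was 1.59 and passed (edgeR adjusted p = 0.0289).

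Rab3a, the main Rab3 of brain synapses, was 17.3, 13.7 and 8.7 CPM in the NeuroD1 positive libraries and 2.6, 6.5 and 3.5 CPM in the negative ones. In the Glu positive cells it was 1.2, 4.1 and 14.5 CPM, and in Glu negative libraries it had 0 counts in Glu_negative_5254 and 4.2 CPM in Glu_negative_4665. The NeuroD1 groups did not overlap and the Glu groups did. Neither log2 fold change passed, at 1.67 ± 1.00 for NeuroD1 (edgeR adjusted p = 0.318) and 1.62 ± 1.13 for Glu (edgeR adjusted p = 0.413).

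Rab27a, which brings granules to the cell cortex, was 61.0, 67.1 and 72.5 CPM in the NeuroD1 positive and 25.9, 47.2 and 29.2 CPM in the negative libraries. Among Glu positive libraries it was 27.6, 27.2 and 29.6 CPM, and in Glu negative libraries 24.5 and 38.2 CPM. The NeuroD1 groups did not overlap, yet the log2 fold change of 0.98 ± 0.40 did not pass (edgeR adjusted p = 0.116), and in Glu it was -0.16 ± 0.44 (edgeR adjusted p = 0.874). Its paralog Rab27b was 6.6, 16 and 8.1 CPM in NeuroD1 positive, 10.6, 9.0 and 10 in NeuroD1 negative, 3.6, 9.0 and 15.5 in Glu positive and 7.5 and 16.1 CPM in Glu negative libraries. The groups of Rab27b overlapped in both strains, and it was called in none of the 5 comparisons. Its log2 fold change was 0.04 ± 0.66 for NeuroD1 and -0.32 ± 0.71 for Glu.

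Rab37, a Rab of secretory granules including mast cell and insulin granules, was 43.7, 23.7 and 38.8 CPM in the NeuroD1 positive libraries and 15.7, 10.5 and 3.9 CPM in the negative ones. The log2 fold change was 1.79 ± 0.54 (edgeR adjusted p = 0.0316). In edgeR it did not pass without NeuroD1_positive_6360 (1.62, adjusted p = 0.105), NeuroD1_positive_6362 (1.72, adjusted p = 0.0899), NeuroD1_negative_6361 (1.81, adjusted p = 0.0886) or NeuroD1_negative_6362 (1.42, adjusted p = 0.135). The Glu libraries held 36.4, 23.8 and 22.4 CPM in positive and 19.0 and 21.8 CPM in negative cells.

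**Figure D2:**
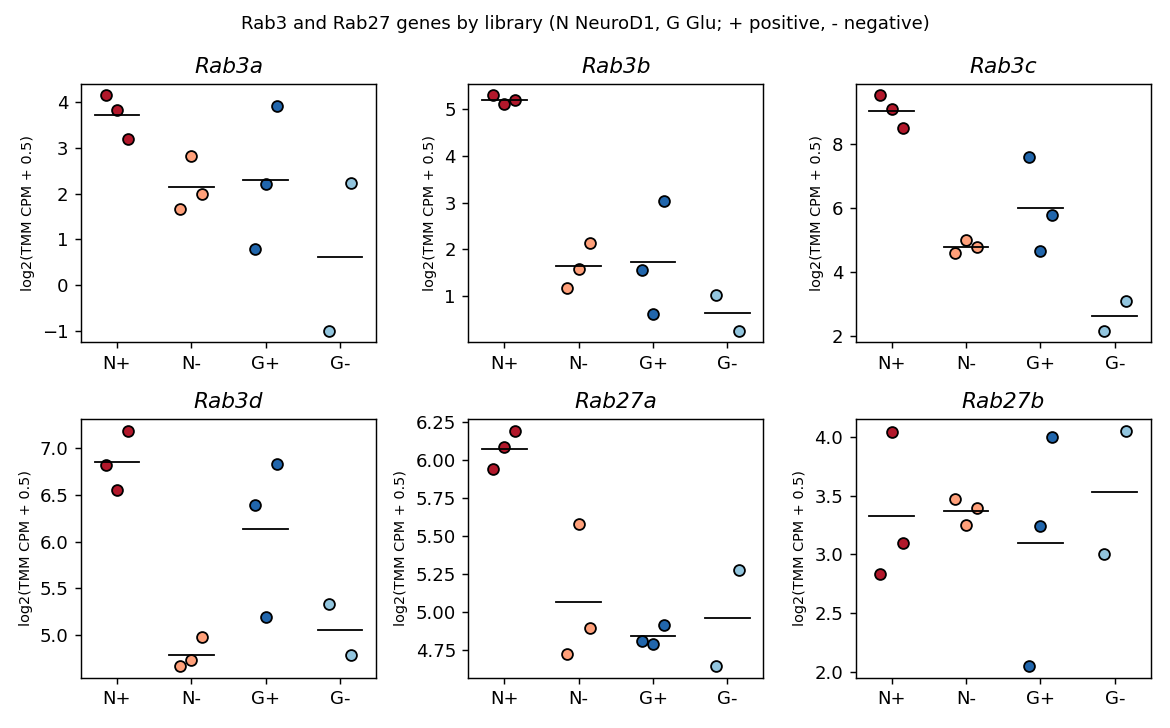
Each panel shows 1 gene, each point 1 library and each line the group mean, on a log2(TMM CPM + 0.5) scale whose range differs between panels. Rab3b, Rab3c and Rab3d are highest in the 3 NeuroD1 positive libraries, apart from an overlap with Glu positive cells for Rab3d, while the groups of Rab27b overlap.

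Per kilobase of exon, the 4 Rab3 genes together were 89.5 ± 14.8 CPM per kb (SD, n = 3) in NeuroD1 positive, 11.5 ± 1.6 (n = 3) in NeuroD1 negative, 30 ± 14.9 (n = 3) in Glu positive and 9.7 ± 0.7 (n = 2) in Glu negative cells. Rab3c made up 57.2%, 54.3% and 38.2% of this in the NeuroD1 positive libraries, and 20.3%, 21.0% and 18.2% in the negative ones. In Glu positive libraries its share was 43.3%, 16% and 11.2%, and in the Glu negative ones it was 3.2% and 7.2%. The share of Rab3c was thus higher in every positive than in every negative library of its strain. Rab3d made up the largest share in every library except NeuroD1_positive_6360 and NeuroD1_positive_6361, where Rab3c did. The Rab3d share was 31.9% ± 10.3 (n = 3) in NeuroD1 positive, 57.3% ± 6.6 (n = 3) in NeuroD1 negative, 62.6% ± 7.9 (n = 3) in Glu positive and 81.3% ± 15.8 (n = 2) in Glu negative cells. These shares rest on annotated exon lengths, of 12049 bases for Rab3c and 4196 for Rab3d.

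**Figure D3:**
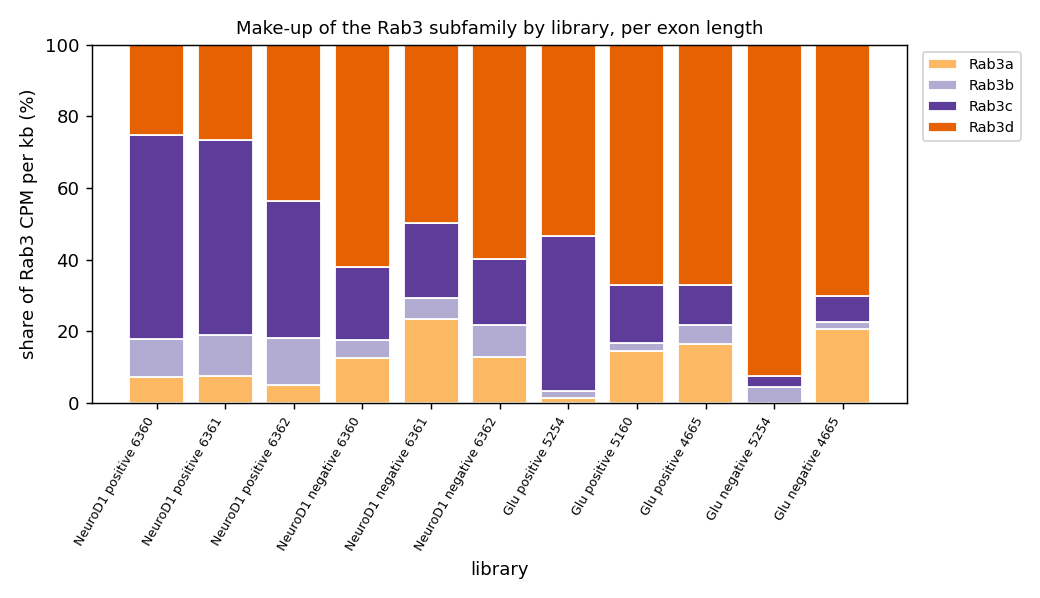
Stacked bars give, for each of the 11 libraries, the percentage of the summed Rab3 CPM per kb that belongs to each of the 4 Rab3 genes. Rab3c takes 38.2% to 57.2% in NeuroD1 positive libraries and 18.2% to 21.0% in NeuroD1 negative ones, and Rab3d takes 92.5% in Glu_negative_5254.

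The balance between paralogs was tested as the change in the log2 ratio of a pair, on TMM CPM + 0.5, averaged over both strains, with an exact two-sided permutation of the labels within strain. Of 20 pairs, 0 passed after Benjamini-Hochberg adjustment (2 had an unadjusted p under 0.05), and the smallest permutation p reached was 0.01. With 200 arrangements and 20 pairs, a single pair could not pass alone however far it moved, so the absence of a pass does not show unchanged ratios. Rab3c against Rab3d moved by 2.25 towards Rab3c in positive cells, by 2.19 in the NeuroD1 strain and 2.31 in the Glu strain (exact permutation p = 0.01, adjusted p = 0.2). The ratio did not overlap between positive and negative libraries in either strain. Rab11a against Rab11b fell by 0.85, by 0.73 in the NeuroD1 strain and by 0.98 in the Glu strain (exact permutation p = 0.045, adjusted p = 0.233). Rab27a against Rab27b moved by 0.68 (exact permutation p = 0.15, adjusted p = 0.412), with overlap in both strains. In the NeuroD1 strain alone, where no p under 0.1 is possible, the ratio of Rab8a to Rab8b moved by 1.23 without overlap, and in the Glu strain it was -0.72 with overlap. Other pairs moved further without overlap in the NeuroD1 strain. They were Rab3a against Rab3b (-1.99), Rab4a against Rab4b (-1.53) and Rab3b against Rab3d (1.51), and each overlapped in the Glu strain.

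Promoters of the 3 Rab3 genes called in the NeuroD1 comparison are shown because these genes were higher together. Each run is the 250 bases before the start in the RefSeq promoter table (GRCm38.p6), written 5′ to 3′ on the gene's strand, and capitals mark the letters CAGCTG, one form of the E-box (the site class bound by NeuroD1 and related factors).
Rab3c (chr13:110280207-110280456, minus strand): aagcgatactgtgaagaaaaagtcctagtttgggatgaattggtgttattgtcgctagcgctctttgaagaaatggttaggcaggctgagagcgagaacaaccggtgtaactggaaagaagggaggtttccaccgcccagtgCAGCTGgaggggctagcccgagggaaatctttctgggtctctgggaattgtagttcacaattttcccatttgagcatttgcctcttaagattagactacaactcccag
Rab3b (chr4:108878820-108879069, plus strand): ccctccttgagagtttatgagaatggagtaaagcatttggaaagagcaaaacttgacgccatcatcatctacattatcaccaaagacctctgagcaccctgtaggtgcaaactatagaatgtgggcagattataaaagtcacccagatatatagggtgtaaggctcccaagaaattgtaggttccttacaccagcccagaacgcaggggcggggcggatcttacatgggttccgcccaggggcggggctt
Rab3d (chr9:21918184-21918433, minus strand): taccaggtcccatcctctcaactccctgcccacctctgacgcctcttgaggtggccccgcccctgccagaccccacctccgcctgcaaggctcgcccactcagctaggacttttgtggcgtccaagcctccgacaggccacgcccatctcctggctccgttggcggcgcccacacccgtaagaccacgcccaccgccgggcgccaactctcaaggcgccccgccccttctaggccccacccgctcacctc
The table had an entry for 45 of the 54 members, with 57 promoters. CAGCTG, which reads the same on both strands, was in 8 of the 57 Rab promoters, 14.0%, against 13.0% of all 32851 promoters of that length. CAGATG or its reverse CATCTG was in 6 of the 57, 10.5%, against 14.4% of all. The cyclic AMP element TGACGTCA was in 2, those of Rab25 and Rab5a, and the NRSE half-site TTCAGCACC or its reverse in 0. These are matches of letters only. The Rab3c start used here lies inside the GENCODE gene, which begins further upstream, and the runs of Rab3b and Rab3d hold no CAGCTG.

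Among genes of the exocytic and polarised pathways, 1 of 6 tested was lower and 0 were higher in the NeuroD1 comparison. That was 16.7% called, near the 14.2% of all tested genes called in either direction. In the Glu comparison 0 of 6 were called by edgeR or DESeq2 (2 at an unadjusted p under 0.05). Rab8b, a Rab of polarised delivery to the plasma membrane, was 6.2, 7.2 and 8.7 CPM in the NeuroD1 positive and 41.6, 47.2 and 35.4 CPM in the negative libraries. The groups were far apart, with a log2 fold change of -2.47 ± 0.67 (edgeR adjusted p = 0.017). In edgeR it did not pass without NeuroD1_positive_6360 (-2.36, adjusted p = 0.0694), NeuroD1_positive_6361 (-2.45, adjusted p = 0.0577) or NeuroD1_positive_6362 (-2.61, adjusted p = 0.0509). Glu positive values of Rab8b were 352, 52.7 and 29.6 CPM, and in Glu negative libraries 92.9 and 94.8 CPM. Glu_positive_5254 was thus above both negative libraries and the other 2 positive libraries were below them. The Glu log2 fold change was 0.62 ± 0.68 (edgeR adjusted p = 0.628), and -1.19 without Glu_positive_5254 (edgeR adjusted p = 0.0879).

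Immune markers were lower along with Rab8b in the NeuroD1 positive cells, while across the Glu libraries they did not all follow Rab8b. The sum of 12 immune markers was 687 to 1519 CPM in the NeuroD1 positive libraries and 16972 to 36622 CPM in the negative ones, most of it Igha. The sums of 6 other cell type lists were also lower there without overlap, among them those for enterocytes (4528 to 6012 against 7533 to 22217 CPM), goblet cells (1458 to 1893 against 2533 to 3670 CPM), Paneth cells (124 to 259 against 560 to 2743 CPM) and tuft cells (13.2 to 53.0 against 97.1 to 115 CPM). Single members did not all follow these sums. The goblet markers Agr2 and Tff3 and the stromal marker Vim were higher in every NeuroD1 positive library, and some markers, such as Sis of the enterocyte list, overlapped. For Glu the immune sum was 1570 to 5904 CPM in positive and 13157 and 88407 CPM in negative libraries, the last 2 at nearly equal Rab8b levels. Ptprc, the pan-leukocyte antigen CD45, was 1.1, 4.6 and 9.7 CPM in NeuroD1 positive and 180, 160 and 81.2 CPM in NeuroD1 negative libraries. In the Glu positive cells it was 450, 95.4 and 68.2 CPM, and in Glu negative libraries 267 and 281 CPM. Of the immune list, only Ptprc ranked the Glu libraries in the same order as Rab8b did. Glu_positive_5254, the highest for Rab8b, was also the highest for Ptprc, and its Cd4 level was 923 CPM against 72.3 and 114 CPM in the other 2 Glu positive libraries. Ptprc and Cd4 were picked from the list after their values were seen. Of the 12 markers, 7 were lower in Glu_positive_5254 than in Glu_positive_5160, and 8 were below both Glu negative libraries while 3 were above both. None of the 12 markers was at 0 in a whole group. The part of any of these cells in the Rab8b difference was not tested.

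Rab8a, the paralog of Rab8b, was 33.4, 37.8 and 27.1 CPM in NeuroD1 positive, 73.5, 82.8 and 67.7 in NeuroD1 negative, 25.8, 26.9 and 60 in Glu positive and 68.1 and 63.0 CPM in Glu negative libraries. Every positive library was below every negative library of its strain. Its NeuroD1 log2 fold change of -1.19 ± 0.40 just missed the threshold (edgeR adjusted p = 0.0565), and it passed with DESeq2 (-1.25, adjusted p = 0.0204) and in edgeR with RLE, upper quartile or library-total scaling or the compared groups alone (-1.49 to -1.25). Per kilobase, Rab8b made up 18.5% ± 4.8 (n = 3) of the Rab8 pair in NeuroD1 positive, 35.3% ± 1.1 (n = 3) in NeuroD1 negative, 64.0% ± 30.2 (n = 3) in Glu positive and 58.6% ± 1.7 (n = 2) in Glu negative cells. Rab10, Rab12, Rab13 and Rab14, the other members of this role, were not called in either comparison. Rab10, the most abundant of them per kilobase, was 119 to 197 CPM in NeuroD1 positive and 128 to 138 CPM in NeuroD1 negative cells. In the Glu comparison Rab10 passed in edgeR without Glu_positive_5160 (1.31, adjusted p = 0.0383).

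**Figure D4:**
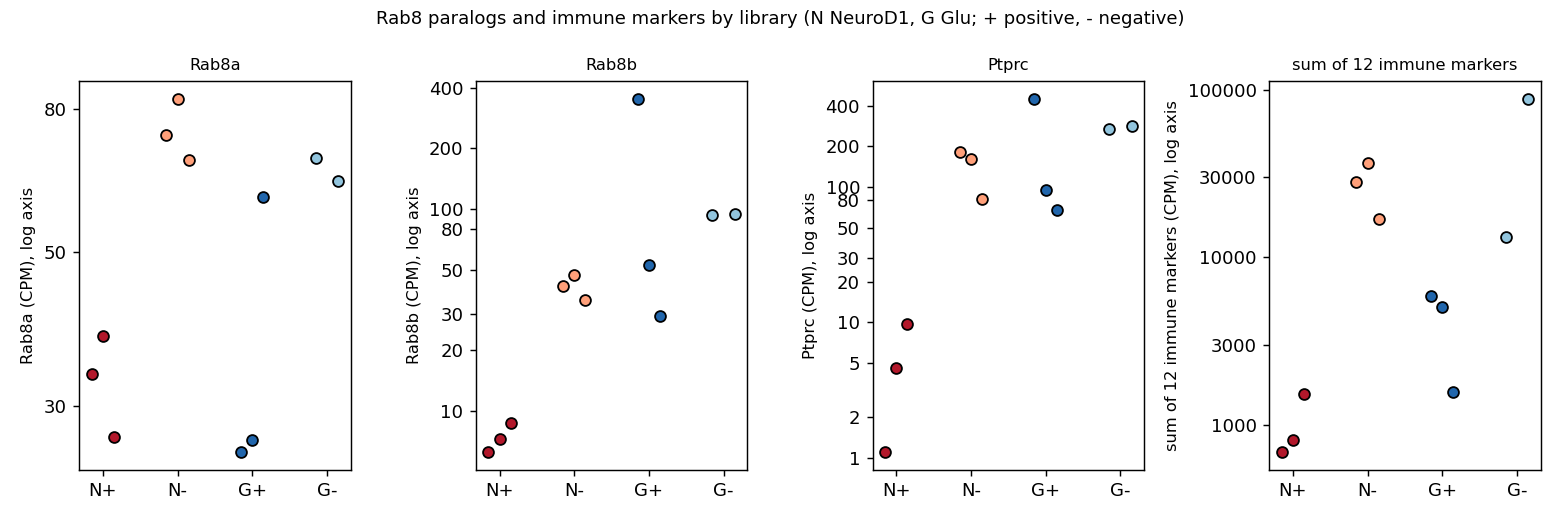
Points are libraries, on log axes of CPM that differ between panels, for Rab8a, Rab8b, the leukocyte gene Ptprc and the sum of 12 immune markers. Rab8b is lowest in the 3 NeuroD1 positive libraries at 6.2 to 8.7 CPM, and 1 Glu positive library stands at 352 CPM for Rab8b and 450 CPM for Ptprc.

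Of 8 Rab genes of the recycling endosome, 2 were higher and 0 lower in the NeuroD1 comparison (25% called, against 14.2% of all tested genes). In the Glu comparison edgeR called 0 (2 at an unadjusted p under 0.05) and DESeq2 1. Rab15, a Rab of endocytic recycling known from neurons, was 61.0, 80.9 and 86.7 CPM in the NeuroD1 positive and 8.8, 15.1 and 8.7 CPM in the negative libraries. Its log2 fold change was 2.82 ± 0.46 (edgeR adjusted p = 0.000339). Among Glu positive libraries Rab15 was 28.5, 59.9 and 57.5 CPM, and in Glu negative libraries 14.8 and 16.5 CPM. The groups did not overlap in either strain. The Glu log2 fold change of 1.63 ± 0.50 missed the threshold (edgeR adjusted p = 0.0557) and passed with DESeq2. It also passed in edgeR without Glu_positive_5254 (1.91, adjusted p = 0.00903).

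Rab4b, a Rab of rapid recycling, was 22.4, 47.7 and 21.8 CPM in the NeuroD1 positive and 9.5, 9.0 and 5.2 CPM in the negative libraries. The groups did not overlap, with a log2 fold change of 1.93 ± 0.57 (edgeR adjusted p = 0.0279). NeuroD1_positive_6361 was the highest, and without it the value was 1.47 (edgeR adjusted p = 0.167). It also did not pass in edgeR without NeuroD1_negative_6360 (2.09, adjusted p = 0.077), NeuroD1_negative_6361 (2.04, adjusted p = 0.0751) or NeuroD1_negative_6362 (1.72, adjusted p = 0.122). Glu positive values were 10.3, 9.0 and 18.2 CPM and in negative ones 14.4 and 10.2 CPM, which overlap. Exons of Rab4b overlap another gene model on the same strand, Gm21983, over 65.0% of their length, and that model held 0 counts. The paralog Rab4a was 17.6, 46.5 and 23.7 CPM in NeuroD1 positive and 13.0, 23.6 and 33.2 CPM in NeuroD1 negative libraries, which overlap. Rab11a, Rab11b, Rab17, Rab25 and Rab35 were not called in either comparison.

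In the ER to Golgi and Golgi group, 2 of 13 tested Rab genes were higher and 0 lower in the NeuroD1 comparison. That was 15.4% called, near the 14.2% of all tested genes called in either direction. In the Glu comparison edgeR called 0 of the 13 (4 at an unadjusted p under 0.05) and DESeq2 1. Rab2a, which acts between the ER and the Golgi and in granule formation, was 250, 352 and 343 CPM in the NeuroD1 positive and 130, 114 and 150 CPM in the negative libraries. The log2 fold change was 1.26 ± 0.31 (edgeR adjusted p = 0.0105), and in edgeR it did not pass without NeuroD1_negative_6360 (1.25, adjusted p = 0.0508) or NeuroD1_negative_6361 (1.18, adjusted p = 0.0513). In the Glu positive cells Rab2a was 261, 148 and 207 CPM, and in Glu negative libraries 122 and 94.4 CPM. The groups did not overlap in either strain, though the Glu log2 fold change of 0.93 ± 0.36 did not pass (edgeR adjusted p = 0.126). Its paralog Rab2b made up 1.0% to 3.4% of the Rab2 pair per kilobase in the 4 group means.

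Rab36, a Golgi Rab that acts in lysosome positioning, was 19.8, 20.6 and 22.7 CPM in the NeuroD1 positive and 2.3, 4.0 and 2.6 CPM in the negative libraries. The groups were well apart, with a log2 fold change of 2.84 ± 0.79 (edgeR adjusted p = 0.0202). In edgeR it did not pass without NeuroD1_positive_6362 (2.78, adjusted p = 0.0556), NeuroD1_negative_6360 (2.66, adjusted p = 0.0975) or NeuroD1_negative_6362 (2.77, adjusted p = 0.0784). Among Glu positive libraries Rab36 was 2.4, 6.9 and 22.8 CPM and in negative ones 8.4 and 2.8 CPM, which overlap. The Glu log2 fold change was 0.97 ± 0.82 (edgeR adjusted p = 0.514).

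Rab6b and Rab39b were high in 1 Glu positive library. Rab6b, the neuronal Rab6 of Golgi traffic, was 226, 19.6 and 16.1 CPM in Glu positive libraries and 10.8 and 25.6 CPM in the negative ones. The Glu log2 fold change was 2.25 ± 0.95 (edgeR adjusted p = 0.159) and -0.03 without Glu_positive_5254. Rab39b was 44.0, 2.4 and 5.8 CPM in the same positive libraries and 1.5 and 2.2 CPM in the negative ones, without overlap. Its log2 fold change was 3.16 ± 1.03 (edgeR adjusted p = 0.0714). It passed with DESeq2 (3.23, adjusted p = 0.00981) and in edgeR without a filter (3.13, adjusted p = 0.0138). It also passed in edgeR without Glu_positive_5160 (3.66, adjusted p = 0.0211) or Glu_positive_4665 (3.58, adjusted p = 0.0405). All of these fits kept Glu_positive_5254. In the NeuroD1 strain Rab6b and Rab39b were not called, though every positive library was above every negative one. Rab39b was 3.2 to 4.8 CPM per kb there, against 1.1 to 2.2 in the negative libraries. Rab6b was 1.43 to 7.23 against 0.87 to 1.40 CPM per kb. It passed in the NeuroD1 strain without a filter (2.08, edgeR adjusted p = 0.00336). These 2 genes fell outside the naming rule and were chosen after their values were seen. Glu_positive_5254 was also the highest for Rab8b, Rab2b, Rab12 and Rab17, at 352, 35.5, 58.6 and 73.1 CPM. Of these, Rab2b shares 59.3% of its exon length with a gene on the opposite strand. Antisense model Gm15063 overlaps 18.6% of the exon length of Rab39b, and reads of the 2 strands may not be told apart in these counts.

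Rab1a, Rab1b, Rab6a, Rab18, Rab19, Rab30, Rab33b and Rab43 of this group were called in no comparison in the main fit. For Glu, Rab6a passed in edgeR without a filter (1.36, adjusted p = 0.0420). It also passed there without Glu_positive_5160 (1.66, adjusted p = 0.0405) or Glu_positive_4665 (1.68, adjusted p = 0.0411). Rab34 was 0 to 3.1 CPM over the 11 libraries and was not tested.

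Of 8 early endosome Rab genes, edgeR called 0 in the NeuroD1 comparison (2 at an unadjusted p under 0.05, 0 with DESeq2) and 0 in the Glu comparison (1 at an unadjusted p under 0.05, 0 with DESeq2). Rab5a, Rab5b and Rab5c, which drive fusion of early endosomes, made up 8.1% ± 2.1, 30.7% ± 5.0 and 61.2% ± 3.0 of the Rab5 sum per kilobase in NeuroD1 positive cells (n = 3). In NeuroD1 negative cells the shares were 4.8% ± 0.9, 20.6% ± 6.6 and 74.6% ± 7.5 (n = 3). Rab5c was the most abundant in all 4 groups by mean. Rab5b was 68.3, 103 and 71.2 CPM in NeuroD1 positive and 36.3, 48.2 and 48.0 CPM in NeuroD1 negative libraries, without overlap, and its log2 fold change of 0.88 ± 0.38 did not pass (edgeR adjusted p = 0.146). Rab20, Rab21, Rab24, Rab22a and Rab31 are the other members of this group. Of their values, those of Rab20 and Rab24 are uncertain, because a gene on the opposite strand covers 25.6% and 62.4% of their exon length.

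Of 3 late endosome genes, 1 was higher and 0 lower in the NeuroD1 comparison (33.3% called, against 14.2% of all tested genes). In the Glu comparison edgeR called 0 (1 at an unadjusted p under 0.05) and DESeq2 0. Rab7, the Rab of late endosomes and lysosomes, was 661, 814 and 934 CPM in the NeuroD1 positive and 400, 387 and 434 CPM in the negative libraries. It did not overlap and had a log2 fold change of 0.98 ± 0.29 (edgeR adjusted p = 0.031). In edgeR it passed without NeuroD1_positive_6360 but not without NeuroD1_positive_6361 (0.98, adjusted p = 0.0884) or NeuroD1_positive_6362 (0.86, adjusted p = 0.127), nor without NeuroD1_negative_6360 (0.96, adjusted p = 0.111), NeuroD1_negative_6361 (0.96, adjusted p = 0.104) or NeuroD1_negative_6362 (1.03, adjusted p = 0.0729). With scaling by library totals, which moves the median of all tested genes from 0.02 to -0.28, it was 0.68 (edgeR adjusted p = 0.224). Glu positive values of Rab7 were 488, 337 and 556 CPM and in negative ones 379 and 291 CPM, which overlap. Rab9 and Rab9b, which return receptors from late endosomes to the Golgi, were not called.

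Of 2 lysosome-related genes, Rab29 and Rab32, edgeR and DESeq2 called 0 in either comparison (0 at an unadjusted p under 0.05). In the remaining group of cilium-linked and other Rab genes, 1 of 4 tested, Rab40b, was higher and 0 were lower in the NeuroD1 comparison. That was 25% called, against 14.2% of all tested genes. In the Glu comparison edgeR called 0 (0 at an unadjusted p under 0.05) and DESeq2 0. Rab40b, part of a ubiquitin ligase, had 23 counts in the NeuroD1 positive and 0 in the negative libraries, which makes it at least 7.59-fold higher on a floor of 3 counts over the group (edgeR adjusted p = 0.0436). NeuroD1_positive_6361 was high at 7.2 CPM, and the other 2 held 0.4 and 0.6 CPM. It was not testable without that library, and it did not pass in edgeR without NeuroD1_negative_6360, NeuroD1_negative_6361 or NeuroD1_negative_6362 (adjusted p = 0.16, 0.086 and 0.1). Rab23, Rab28 and Rab40c were not called. Rab44 had 33 counts in the NeuroD1 negative libraries, nearly all in NeuroD1_negative_6361 at 15.1 CPM, and 0 in the other groups.

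**Figure D5:**
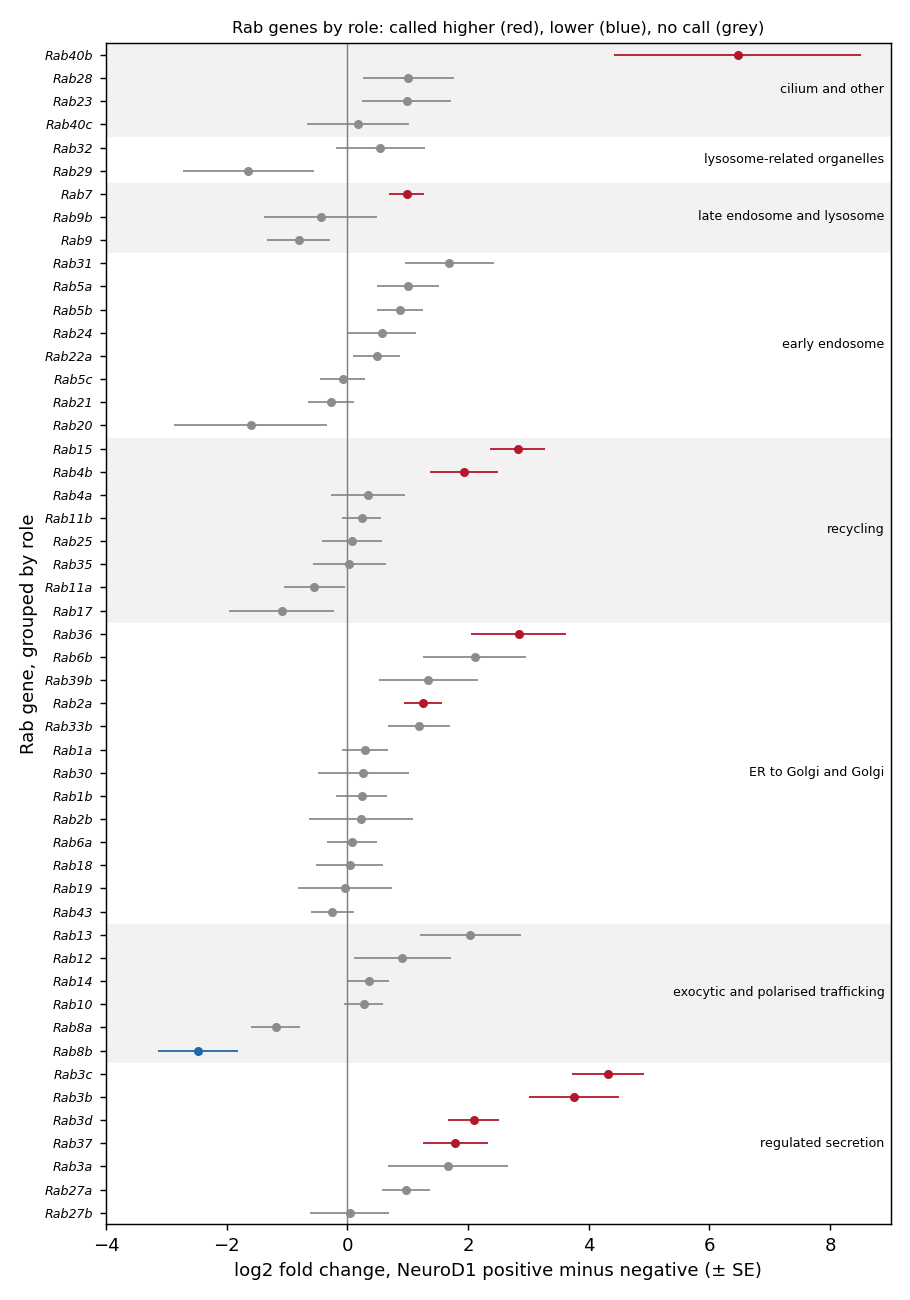
Points are the log2 fold change of NeuroD1 positive minus negative for each of the 51 tested Rab genes, with bars of 1 SE, grouped by role. Of 7 genes of regulated secretion 4 are called higher, and Rab8b at -2.47 is the 1 gene called lower.

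Per kilobase, Rab7 was the most abundant Rab in all 4 groups by mean, at 308 ± 53 (n = 3), 156 ± 9 (n = 3), 176 ± 43 (n = 3) and 128 ± 24 (n = 2) CPM per kb in the order NeuroD1 positive and negative, Glu positive and negative. Rab2a and Rab1a held the next 2 places in each group, and in NeuroD1 positive cells they were 148 ± 26 and 120 ± 16 CPM per kb, with ranges that overlap. Rab10 at 45.8 ± 11.2 and Rab3c at 45.4 ± 15.3 CPM per kb took places 4 and 5 in NeuroD1 positive cells and did not differ beyond their spread. In NeuroD1 negative cells Rab3c was 2.3 ± 0.3 and in Glu positive cells 7.5 ± 7.5 CPM per kb. The sum over all 54 genes was 1093 ± 82 (n = 3), 688 ± 52 (n = 3), 857 ± 296 (n = 3) and 583 ± 80 (n = 2) CPM per kb in the 4 groups in that order. Without Rab3c the sums were 1047 ± 91, 686 ± 53, 849 ± 289 and 582 ± 80 CPM per kb, so the higher total of NeuroD1 positive cells did not come from Rab3c alone.

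Between the positive cells of the 2 strains, 3 Rab genes were higher in NeuroD1 positive cells and 1 was lower. Over all tested genes edgeR called 3.18% higher and 4.95% lower, or 8.13% in either direction, against 7.84% of the Rab genes. At an unadjusted p under 0.05 there were 12 Rab genes, against 24.6% of all tested genes. Rab3b was higher by a log2 fold change of 3.22 ± 0.71 (edgeR adjusted p = 0.0087), Rab3c by 2.59 ± 0.54 (edgeR adjusted p = 0.00659) and Rab8b was lower at -4.27 ± 0.70 (edgeR adjusted p = 0.00109). For these 3 genes the groups did not overlap, and the calls held without any 1 library. Rab22a, of early endosomes, was 53.3, 75.5 and 73.3 CPM in NeuroD1 positive and 23.4, 25.1 and 18.9 CPM in Glu positive libraries. Its log2 fold change was 1.59 ± 0.39 (edgeR adjusted p = 0.0182), and in edgeR it did not pass without NeuroD1_positive_6361 (1.5, adjusted p = 0.0708) or NeuroD1_positive_6362 (1.52, adjusted p = 0.0658). The call of Rab22a was also lost in edgeR with library totals (1.23, adjusted p = 0.0863) and with the compared groups alone (1.57, adjusted p = 0.0829). Strain, reporter and the enteroendocrine and immune marker sums given above all differ between these groups and cannot be told apart. The enteroendocrine sums were mostly Chgb, and the markers of that list did not all go the same way. Chga, Chgb, Pcsk1 and Scg3 were higher in every NeuroD1 positive than in every Glu positive library, Insm1 was lower and the others overlapped.

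Between the negative cells of the 2 strains edgeR and DESeq2 called 0 of the 51 Rab genes, with 4 at an unadjusted p under 0.05 (9.04% of all tested genes), where edgeR called 0.488% of all tested genes in either direction. Rab3c was 2.16 ± 0.66 higher in NeuroD1 negative cells on the log2 scale, which did not pass (edgeR adjusted p = 0.238) but passed without a filter on low counts (2.13, edgeR adjusted p = 0.00155). For the interaction edgeR and DESeq2 also called 0 of the 51, with 8 at an unadjusted p under 0.05 (10.9% of all tested genes), where edgeR called 0.0907% of all tested genes higher and 0.0209% lower, or 0.112% in either direction. Its value for Rab8b was -3.09 ± 0.96 (edgeR adjusted p = 0.251). Without a filter on low counts the interaction passed in edgeR for 3 Rab genes, Rab8b (-3.08, adjusted p = 0.00156), Rab17 (-3.57, adjusted p = 0.045) and Rab40b (8.63, adjusted p = 0.035), where 78 of all genes were higher and 260 lower. Rab8b and Rab17 were far higher in Glu_positive_5254 (74.4 and 36.7 CPM per kb) than in any other library. Rab40b had 0 counts in the NeuroD1 negative libraries and 19 of its 23 NeuroD1 positive counts in NeuroD1_positive_6361, so 8.63 is no measure of size. With the filter, no Rab gene was shown to change differently in the 2 strains, and for these 3 genes that depends on the filter.

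The partners of the Rab genes were read in 6 lists. For scale, edgeR called 14.2% of all tested genes in either direction in the NeuroD1 comparison and 6.64% in the Glu comparison. At an unadjusted p under 0.05 the shares of all tested genes were 26.4% and 23.4%. Counts in a list near or below these shares say nothing particular about its members. Among Rab3 and Rab27 effectors, 10 of 15 were tested, of which 3 were higher and 1 lower in the NeuroD1 comparison, and 2 higher and 0 lower in the Glu comparison (6 at an unadjusted p under 0.05; DESeq2 called 1 lower). The list's median log2 fold change was -0.12 for NeuroD1 and -0.06 for Glu, against 0.02 and 0.12 over all tested genes. Rph3al, or Noc2, an effector of Rab3 and Rab27 on hormone granules, was 119, 185 and 201 CPM in the NeuroD1 positive and 20.1, 22.1 and 19.2 CPM in the negative libraries, with a log2 fold change of 3.04 ± 0.45 (edgeR adjusted p = 0.000135). In the Glu positive cells it was 37.0, 39.3 and 99 CPM and in negative ones 32.1 and 18.5 CPM. Between the positive groups it was 1.52 ± 0.42 higher in the NeuroD1 strain (edgeR adjusted p = 0.0303), which did not pass without NeuroD1_positive_6361 (1.42) or NeuroD1_positive_6362 (1.38) or Glu_positive_5254 (1.27) or Glu_positive_5160 (1.27), nor with library totals (1.06) or the compared groups alone (1.53).

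Rims2, a RIM protein that links Rab3 to the release site, was 44.4, 34.7 and 57.4 CPM in NeuroD1 positive, 5.3, 9.5 and 7.0 in NeuroD1 negative, 29.7, 155 and 62.8 in Glu positive and 9.3 and 5.6 CPM in Glu negative libraries. It was higher by 2.67 ± 0.57 in the NeuroD1 strain (edgeR adjusted p = 0.00338) and by 3.47 ± 0.67 in the Glu strain (edgeR adjusted p = 0.00454), the latter not passing without Glu_negative_4665 (3.13, edgeR adjusted p = 0.109). Glu_positive_5160, the lowest of its group for Rab3c, was the highest for Rims2. Sytl5, a synaptotagmin-like effector of Rab27, was higher by 2.79 ± 0.76 (edgeR adjusted p = 0.0178) and 3.41 ± 0.89 (edgeR adjusted p = 0.0269) in the 2 strains. In edgeR it did not pass in the NeuroD1 strain without NeuroD1_positive_6362 (2.15), NeuroD1_negative_6360 (2.29) or NeuroD1_negative_6361 (2.69), nor in the Glu strain without Glu_negative_5254 (3.75) or Glu_negative_4665 (3.11) or with the compared groups alone (3.38). Sytl3, of the same family, had 1 count in the NeuroD1 positive and 59 in the negative libraries, a ratio of 0.0168 (exact 95% interval 0.000418 to 0.0971, counting error only), and was lower (edgeR adjusted p = 0.00459). The immune markers given above were also lower in those positive libraries, and the part of immune cells in the Sytl3 difference was not tested.

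Of 32 tested exchange factors, 1 was higher and 0 lower in the NeuroD1 comparison (4 at an unadjusted p under 0.05; DESeq2 called 2 lower), and 1 was higher and 1 lower in the Glu comparison. Madd, the exchange factor of Rab3 and Rab27, was 77.5, 107 and 91.3 CPM in the NeuroD1 positive and 31.5, 26.1 and 39.7 CPM in the negative libraries, with a log2 fold change of 1.5 ± 0.37 (edgeR adjusted p = 0.00946). With library totals it was 1.20 and missed the threshold (edgeR adjusted p = 0.0509). For Glu the groups of Madd overlapped, with means of 68.6 CPM in positive and 77.5 CPM in negative libraries. Its Glu log2 fold change was -0.18 ± 0.40 (edgeR adjusted p = 0.837). In the Glu strain the higher gene was Sbf2, an exchange factor of Rab28 and Rab21, at 1.63 ± 0.43 (edgeR adjusted p = 0.0296), and the lower one Dennd1c at -2.84 ± 0.84 (edgeR adjusted p = 0.0478). In edgeR Sbf2 did not pass without Glu_negative_5254 (1.53) or Glu_negative_4665 (1.70) or Glu_positive_5160 (1.34), nor Dennd1c without Glu_negative_5254 (-3.31) or Glu_negative_4665 (-2.22) or Glu_positive_5254 (-2.88) or Glu_positive_4665 (-2.36). Sbf2 also lost its call with the replicate block (1.29, edgeR adjusted p = 0.101), upper quartile scaling (1.41, edgeR adjusted p = 0.0565), library totals (1.27, edgeR adjusted p = 0.104) and the compared groups alone (1.59, edgeR adjusted p = 0.154). Dennd1c lost its call with the replicate block (-3.53, edgeR adjusted p = 0.0815), RLE scaling (-2.83, edgeR adjusted p = 0.051) and the compared groups alone (-2.88, edgeR adjusted p = 0.135).

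Of 35 GTPase-activating proteins, 2 were higher and 2 lower in the NeuroD1 comparison, and in the Glu comparison edgeR called 0 (7 at an unadjusted p under 0.05) and DESeq2 1 higher. Tbc1d9 at 1.57 ± 0.47 (edgeR adjusted p = 0.0299) and Tbc1d16 at 2.14 ± 0.68 (edgeR adjusted p = 0.0419) were higher in NeuroD1 positive cells, and Tbc1d2b was lower at -2.14 ± 0.56 (edgeR adjusted p = 0.0139). Tbc1d10c had 1 count in the NeuroD1 positive and 46 in the negative libraries, a ratio of 0.0215 (exact 95% interval 0.000533 to 0.126), and was lower (edgeR adjusted p = 0.0141). In edgeR all 4 lost the call in at least 1 fit without 1 library: Tbc1d9 without NeuroD1_positive_6361 (1.57) or NeuroD1_positive_6362 (1.46) or any negative library (1.38 to 1.70), and Tbc1d16 without any positive library (1.95 to 2.25) or NeuroD1_negative_6360 (1.95) or NeuroD1_negative_6362 (1.90). Tbc1d2b lost it without NeuroD1_positive_6360 (-2.05) or NeuroD1_positive_6361 (-1.88) or NeuroD1_negative_6360 (-1.82), and Tbc1d10c without NeuroD1_positive_6361 (adjusted p = 0.0553) or NeuroD1_positive_6362 (adjusted p = 0.0768). Tbc1d9 also lost it with library totals (1.32) and without a filter (1.56), and Tbc1d16 with upper quartile scaling (2.03) and library totals (1.88). Between the positive groups 1 of these genes was higher in the NeuroD1 strain, Tbc1d30 at 2.57 ± 0.68 (edgeR adjusted p = 0.0248), and 2 were lower. The lower ones were Tbc1d5, at -1.60 ± 0.46 (edgeR adjusted p = 0.0371), and Tbc1d10c, with 1 count against 66 (edgeR adjusted p = 0.0122). All 3 lost the call in edgeR without 1 library: Tbc1d30 without any NeuroD1 positive library (2.46 to 2.63) or Glu_positive_5254 (2.57) or Glu_positive_5160 (2.60), Tbc1d5 without NeuroD1_positive_6360 (-1.34) or NeuroD1_positive_6361 (-1.34) or Glu_positive_5254 (-1.24) or with the compared groups alone (-1.62), and Tbc1d10c without NeuroD1_positive_6361 (adjusted p = 0.0569) or NeuroD1_positive_6362 (adjusted p = 0.0684) or Glu_positive_5254 (adjusted p = 0.0554).

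Of 7 genes of prenylation, escort and extraction, 0 were higher and 1 lower in the Glu comparison (3 at an unadjusted p under 0.05; DESeq2 called 1 higher). Rabac1, or PRA1, which releases prenylated Rab proteins from their soluble carrier, was lower in Glu positive cells at -2.63 ± 0.76 (edgeR adjusted p = 0.0442), and in edgeR it did not pass with any 1 of the 5 Glu libraries left out (-2.90 to -2.27), nor with the replicate block (-2.74, adjusted p = 0.0974) or the compared groups alone (-2.68, adjusted p = 0.135). Of 10 tested effectors of Rab11 and recycling, 0 were higher and 1 lower in the NeuroD1 comparison (2 at an unadjusted p under 0.05; DESeq2 called 0 higher), and 0 were called in the Glu comparison by edgeR or DESeq2 (0 at an unadjusted p under 0.05). The lower gene was Myo5b, the motor of Rab11 vesicles, at -1.14 ± 0.37 (edgeR adjusted p = 0.0475), which did not pass with any 1 of the 6 NeuroD1 libraries left out (-1.34 to -0.90), nor without a filter (-1.16) or with a stricter one (-1.13). Of 11 tested effectors of Rab5 and Rab7, edgeR and DESeq2 called 0 in either comparison, with 3 for NeuroD1 and 4 for Glu at an unadjusted p under 0.05.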

How the data were processed

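RNA was sequenced from 11 libraries of FACS-sorted duodenal cells, made, per the labels' protocols, from total RNA with an amplifying kit. The submitters' processing notes list GRCm38 as the build and, as tools, TopHat2 2.1.0, CASAVA and Cufflinks 2.2.1. The annotation release, the counter and the strand setting were not given in the sources used here. Per the file, the authors' deposited table held estimated counts, with values that were not whole in 848 genes, 2 of them Rab genes, and these expected counts were rounded. Symbols, exon lengths and coordinates came from GENCODE vM21 for 36341 of 38283 genes. Exons of 20 of the 54 Rab genes overlap another gene, 6 of them by at least 10% of their length with a gene on the opposite strand, and such counts may share reads.

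The 4 group means were fitted over all 11 libraries in edgeR 4.0.16 (R 4.3.3) with filterByExpr, TMM and the quasi-likelihood test, for 5 contrasts, without a replicate block. The SE is the size of the log2 fold change divided by the square root of F. The fit was tested on simulated data. Alternatives were RLE, upper quartile and library-total scaling, DESeq2 1.42.0, a stricter filter and none, the compared groups alone, a replicate block, mt-Rnr1 and mt-Rnr2 left out, and each library left out. Intervals and floors cover counting error only, since amplified reads are not independent molecules. The rule for named genes took the 4 Rab3 and 2 Rab27 genes, then the called Rab genes with the largest change (up to 6 each way for NeuroD1, 4 for Glu, 3 between positives and between negatives), their paralogs, and up to 3 called genes each way of each partner list. Called Rab genes beyond it, and other Rab genes given with values, were chosen after their values were seen. The members and lists were chosen with earlier results of these data known. Some results that the rule for named genes takes from the partner lists are not reported here.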

Additional observations from a re-analysis of the deposited data

How the results depend on the processing

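The number of Rab genes called higher in the NeuroD1 comparison (10) was 6 with library totals, which lost Rab2a, Rab37, Rab4b and Rab7, and 5 to 9 with 1 library left out, and the number lower (1) was 2 with RLE, upper quartile, library totals, no filter, DESeq2 or the compared groups alone and 0 to 1 with 1 library left out. In the Glu comparison the number higher (1) was 5 without a filter, 3 with DESeq2 and 0 to 5 with 1 library left out. Without a filter the interaction gave 1 higher (Rab40b) and 2 lower (Rab8b and Rab17), and the negatives 1 higher (Rab3c). Between positives the number higher (3) was 2 with library totals or the compared groups alone, which lost Rab22a, 5 with upper quartile or DESeq2 and 2 to 5 with 1 library left out, and the number lower (1) was 3 without a filter, 2 with DESeq2 and 1 to 2 with 1 library left out.

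Of the partner genes, the 7 higher in the NeuroD1 comparison were 4 with library totals and 4 to 6 with 1 library left out, and the 4 lower were 7 with DESeq2 or the compared groups alone and 1 to 4 with 1 left out. The 3 higher in Glu lost Sbf2 with upper quartile, library totals or the replicate block, and were 5 with DESeq2, 1 with the compared groups alone and 0 to 6 with 1 left out. The 2 lower in Glu were 1 with RLE, 4 with library totals, no filter or DESeq2, 0 with the compared groups alone or the replicate block and 0 to 3 with 1 left out. Between positives the 3 higher were 5 without a filter and 0 to 6 with 1 left out, and the 2 lower were 7 with library totals, 4 with DESeq2, 0 with the compared groups alone and 0 to 8 with 1 left out.

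Signs turned only in values that had not passed. With 1 library left out in turn, the Glu value of Rab8b ran from -1.19 (without Glu_positive_5254) to 1.11, of Rab6b from -0.033 (without Glu_positive_5254) to 2.97, of Rab36 from -0.25 (without Glu_positive_4665) to 2.01 and of Rab27a from -0.43 to 0.21 (without Glu_negative_4665), and the interaction of Rab3c from -0.14 (without Glu_negative_4665) to 1.62. The cause was not tested. Library totals moved the median of all genes from 0.12 to -0.19 in Glu and from -0.14 to -0.51 between positives.

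Deviations from the group means correlated at 0.01 to 0.05 between same-numbered libraries and at -0.04 to 0.02 between differently numbered ones. With 2 or 3 libraries behind each mean, this cannot decide whether the numbers pair the libraries. With the number as a replicate block, 9 Rab genes were higher and 1 lower in NeuroD1, with the call of Rab40b lost (5.78, edgeR adjusted p = 0.0993), and 1 was higher in Glu. Low counts limit Rab40b, Rab44 and Rab9b, and 2 Glu negative libraries limit the Glu comparison.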
